A study of Sus scrofa with 8 samples.

Results

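Immediate early genes are switched on within minutes when growth factors or serum reach a resting cell, without the need for new protein. Fos proteins pair with Jun proteins to form the transcription factor AP-1, EGR1 is a zinc-finger factor, NR4A1 an orphan nuclear receptor, and MYC drives growth and proliferation. In muscle precursors of mouse and chick, high AP-1 and MYC activity is known to accompany proliferation and to hold back the myogenic program. The set described here was given as 10 gene symbols, FOS, FOSL1, FOSL2, JUN, JUNB, EGR1, MYC, NR4A1, IER2 and IER3. Of these, 9 matched exactly 1 row each by gene name, among the 25285 genes of the table. FOSL2 was not analysed here.

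The samples were primary cells of pig skeletal muscle (strain given as LYD), grown in culture and collected differentiated or undifferentiated. Females and males gave 2 libraries each in either state, 8 in all. The extraction protocol calls the cells MuSCs. The labels name no medium, serum level, duration of differentiation or age, and do not say whether replicates came from separate animals, so a p-value here reflects library-to-library spread, which may be technical. The comparison of differentiated with undifferentiated cells asks how the early genes stood in each state, not how they respond to a pulse of serum.

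Values are FPKM, a fragment count scaled by transcript length and library size, as the authors deposited them. Read depth is not known. Estimated from low values, it was, as a multiple of that of differentiated female replicate 1, 1.26 to 1.66 in the other differentiated libraries and 1.67 to 2.26 in the undifferentiated ones. The summed level of 9 myogenic markers was 10673 to 15202 FPKM in differentiated cells and 720 to 1160 FPKM in undifferentiated cells. Of these 9 markers 7 rose and 2 fell, MYOD1 (log2 -0.94) and MYF5 (log2 -1.69), both factors of the myoblast stage. Markers of endothelial, immune, fat and Schwann cells summed to at most 17.1 FPKM per list in any library. The immune list summed to 3.61 to 6.42 FPKM in differentiated cells and 12.2 to 17.1 FPKM in undifferentiated cells. Its member CSF1R was nevertheless at 0 in the undifferentiated libraries. The Schwann list summed to 2.34 to 3.68 FPKM in differentiated cells and 4.3 to 7.21 FPKM in undifferentiated cells. The endothelial and fat sums overlapped between the states. The 6 proliferation markers (MKI67, TOP2A, CCNB1, CCNA2, CDK1 and PCNA) summed to 36.3 to 46.3 FPKM in 3 differentiated libraries and to 105.9 FPKM in differentiated male replicate 1, against 290 to 431 FPKM in undifferentiated cells. The 6 smooth muscle and pericyte markers summed to 1020 to 1220 FPKM in differentiated cells and 17.5 to 40.1 FPKM in undifferentiated cells, and the 7 fibroblast markers to 431 to 1131 FPKM in differentiated cells and 107 to 321 FPKM in undifferentiated cells. Of the 5 fibroblast markers tested, 2 rose, COL1A1 and COL3A1, and 3 were not called. The part of these marker differences in the changes below was not tested. In cultures of this kind, fewer cells that express a gene and less RNA per cell cannot be told apart.

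All 9 genes fell in differentiated cells, and 0 rose (limma on log2 of FPKM + 1, Benjamini-Hochberg adjusted p under 0.05 over 12963 tested genes). Among all tested genes 31.9% fell and 18.0% rose, so that 63.9% of the called genes fell, against 47.6% under median-ratio scaling, where the 9 genes still fell. The median log2 fold change was -1.80 over the 9 genes and -0.18 over all tested genes. In every one of the 9, the 4 differentiated libraries lay below the 4 undifferentiated ones, a pattern found in 30.2% of tested genes (the opposite pattern in 17.1%). Differentiated cells kept between 16.5% (NR4A1) and 56.9% (IER2) of the undifferentiated mean. NR4A1, IER3, FOSL1, FOS and MYC had log2 fold changes of -2.39 to -1.80, JUN one of -1.36, and EGR1, JUNB and IER2 had -0.96 to -0.83. Differences between the genes' fold changes were not tested, and the confidence intervals of neighbours overlap.

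**Figure D1:**
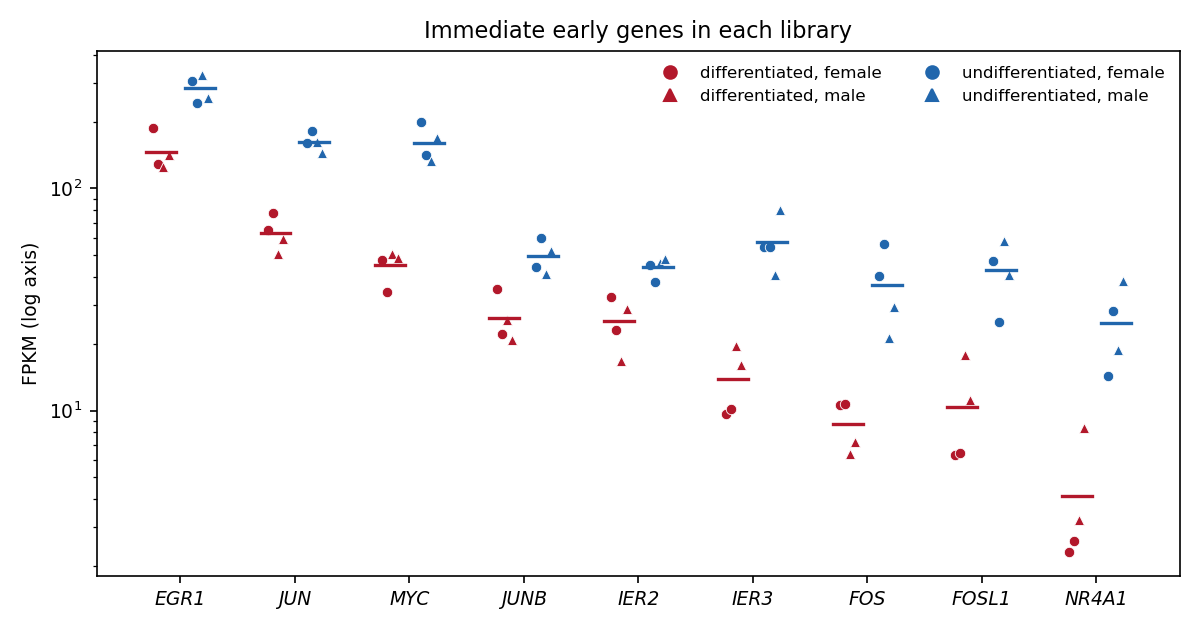
FPKM (log axis) of the 9 immediate early genes in each library, differentiated (red) left of undifferentiated (blue), with circles for females, triangles for males and bars for the mean of 4 libraries. For each gene every red point lies below every blue point, and EGR1 is highest in all 8 libraries.

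The Fos side of AP-1 was represented by FOS, the prototype of the family, and FOSL1 (Fra-1), a relative that lacks the strong activation domain of FOS. FOS (ENSSSCG00000002383, chromosome 7, 104293657 to 104297121, plus strand, Sscrofa10.2) was at 10.6 and 10.7 FPKM in differentiated females and 6.36 and 7.18 FPKM in differentiated males, against 40.4 and 56.1 FPKM in undifferentiated females and 21.1 and 29.2 FPKM in undifferentiated males. The states did not overlap, and within each state both females stood above both males, which held for 1 of the 9 genes and for 3.79% of tested genes (the reverse held for 0 of the 9 and for 4.98%). FOS averaged 8.71 ± 2.27 FPKM in differentiated cells and 36.7 ± 15.2 FPKM in undifferentiated cells (SD, n = 4 libraries each; log2 fold change -1.90 ± 0.153 SE, limma adjusted p = 0.00029).

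FOSL1 (ENSSSCG00000012967, chromosome 2, 5534025 to 5541866, plus strand) was at 6.29 and 6.43 FPKM in differentiated females and 17.7 and 11.2 FPKM in differentiated males, against 47.3 and 25.0 FPKM in undifferentiated females and 58.0 and 40.8 FPKM in undifferentiated males. Again the states did not overlap, but here both differentiated males exceeded both differentiated females. FOSL1 averaged 10.4 ± 5.39 FPKM in differentiated cells and 42.8 ± 13.8 FPKM in undifferentiated cells (SD, n = 4 each; log2 fold change -1.99 ± 0.253 SE, limma adjusted p = 0.0014). Another gene on the minus strand, CCDC85B (5541055 to 5541663, 609 bp), lies wholly inside the span of FOSL1. CCDC85B averaged 13.6 ± 5.54 FPKM in differentiated cells and 36.6 ± 8.80 FPKM in undifferentiated cells (SD, n = 4 each). The library kit is stranded, but whether the authors' counting used the strand is not given in the sources used here, so reads of the shared stretch cannot be told apart.

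FOSL1 made up 37.2% and 37.6% of the summed FOS and FOSL1 level in differentiated females and 73.6% and 60.9% in differentiated males, against 53.9% and 30.8% in undifferentiated females and 73.3% and 58.3% in undifferentiated males. Every male library had a larger share than every female one, although in undifferentiated female replicate 1, as in the 4 males, FOSL1 stood above FOS. This ratio was picked after its values were seen and is given as a description. Averaged over the states, the log2 difference of females minus males was 0.75 ± 0.153 SE for FOS (limma unadjusted p = 0.0026, adjusted p = 0.326) and -0.76 ± 0.253 SE for FOSL1 (unadjusted p = 0.023, adjusted p = 0.474), so neither was called. The summed level of the 7 fibroblast markers also ran with sex, at 463 and 431 FPKM in differentiated females and 1131 and 816 FPKM in differentiated males, against 107 and 113 FPKM in undifferentiated females and 321 and 174 FPKM in undifferentiated males. Its part in the FOS and FOSL1 values was not tested.

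**Figure D2:**
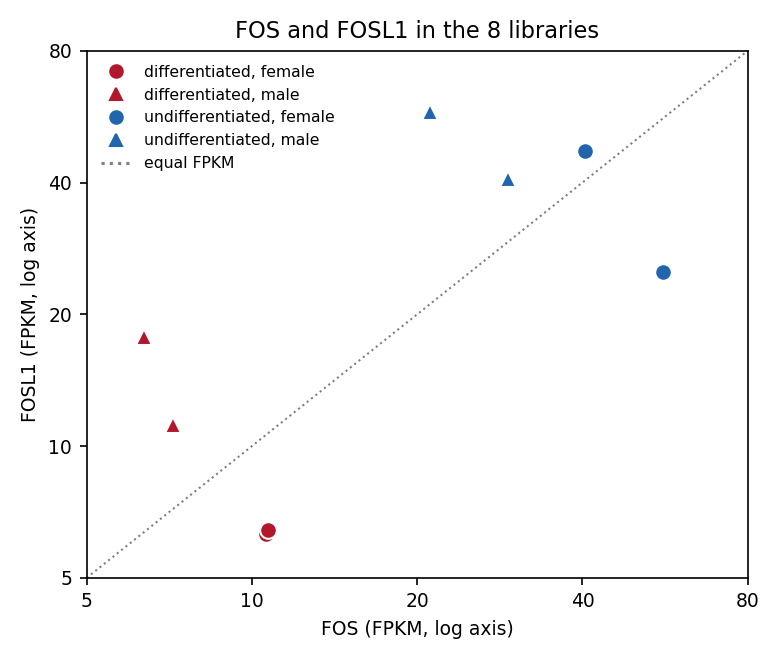
FOSL1 against FOS in FPKM (both axes log) in the 8 libraries, differentiated in red, undifferentiated in blue, females as circles and males as triangles; the dotted line marks equal levels. All 4 male libraries lie above the line, and of the females only undifferentiated replicate 1 does.

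The Jun side was represented by JUN, the main partner of FOS, and JUNB, a partner known in other mammals as a weaker activator. JUN (ENSSSCG00000030839, chromosome 6, 141230121 to 141233597, plus strand) was at 64.7 and 77.6 FPKM in differentiated females and 50.8 and 59.1 FPKM in differentiated males, against 160 and 181 FPKM in undifferentiated females and 162 and 145 FPKM in undifferentiated males. The undifferentiated libraries were tightly grouped, with a coefficient of variation of 9.30%, the lowest of the 9 genes. JUN averaged 63.1 ± 11.3 FPKM in differentiated cells and 162 ± 15.1 FPKM in undifferentiated cells (SD, n = 4 each; log2 fold change -1.36 ± 0.108 SE, limma adjusted p = 0.000279).

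JUNB (ENSSSCG00000013735, chromosome 2, 66505144 to 66507024, plus strand) was at 35.4 and 22.1 FPKM in differentiated females and 25.5 and 20.9 FPKM in differentiated males, against 44.5 and 59.6 FPKM in undifferentiated females and 41.3 and 52.3 FPKM in undifferentiated males. Differentiated female replicate 1 came closest to the undifferentiated range without entering it. JUNB averaged 26.0 ± 6.59 FPKM in differentiated cells and 49.4 ± 8.19 FPKM in undifferentiated cells (SD, n = 4 each; log2 fold change -0.92 ± 0.193 SE, limma adjusted p = 0.00945). The summed JUN and JUNB level was 3.17 to 5.92 times the summed FOS and FOSL1 level in differentiated cells and 2.33 to 2.97 times in undifferentiated cells. These sums leave out FOSL2, FOSB and JUND, which were not analysed here.

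EGR1 and NR4A1 are early factors of different DNA-binding families, each known as a fast sensor of growth signals. EGR1 (ENSSSCG00000014336, chromosome 2, 146156065 to 146160020, plus strand) was at 188 and 129 FPKM in differentiated females and 125 and 142 FPKM in differentiated males, against 306 and 243 FPKM in undifferentiated females and 326 and 256 FPKM in undifferentiated males. It held the highest level of the 9 genes in every library of either state. EGR1 averaged 146 ± 28.8 FPKM in differentiated cells and 283 ± 39.6 FPKM in undifferentiated cells (SD, n = 4 each; log2 fold change -0.96 ± 0.166 SE, limma adjusted p = 0.00451).

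NR4A1 (Nur77, ENSSSCG00000028326) lies on the unplaced scaffold GL892233.1, from 21 to 1787 on the plus strand, a span of 1767 bp. It was at 2.31 and 2.58 FPKM in differentiated females and 3.21 and 8.32 FPKM in differentiated males, against 14.3 and 28.2 FPKM in undifferentiated females and 18.8 and 38.2 FPKM in undifferentiated males. Differentiated male replicate 2 stood apart from the other 3 differentiated libraries but still lay below all undifferentiated ones. NR4A1 averaged 4.10 ± 2.84 FPKM in differentiated cells and 24.9 ± 10.6 FPKM in undifferentiated cells (SD, n = 4 each; log2 fold change -2.39 ± 0.369 SE, limma adjusted p = 0.00291), with the widest confidence interval of the 9 genes (-3.29 to -1.49).

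Close relatives of these factors split, with EGR3 and NR4A3 (NOR-1) fallen and EGR2 and NR4A2 not called. EGR3 was at 16.9 and 22.0 FPKM in differentiated females and 15.4 and 19.1 FPKM in differentiated males, against 77.1 and 62.7 FPKM in undifferentiated females and 73.2 and 100.4 FPKM in undifferentiated males (log2 fold change -2.03, limma adjusted p = 0.000272). NR4A3 averaged 1.37 ± 0.314 FPKM in differentiated cells and 4.74 ± 2.11 FPKM in undifferentiated cells (SD, n = 4 each; log2 fold change -1.21 ± 0.173 SE, limma adjusted p = 0.00215). EGR2 was at 5.12 to 8.64 FPKM in differentiated cells and 4.51 to 9.95 FPKM in undifferentiated cells (log2 fold change -0.01 ± 0.169 SE, limma adjusted p = 0.965). NR4A2 was at 4.44 to 6.48 FPKM in differentiated cells and 3.59 to 5.65 FPKM in undifferentiated cells (log2 fold change 0.30 ± 0.185 SE, limma adjusted p = 0.23).

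To set each factor against its relatives within a library, 4 log2 ratios of FPKM + 1 were formed. They were chosen after the values were seen and are given as a description with no test. The added 1 weighs most on low levels, such as those of NR4A3 and of NR4A1 in differentiated cells. The ratio of EGR1 to EGR2 was 4.05 to 4.36 in differentiated cells and 4.81 to 5.89 in undifferentiated cells, a difference of -0.95. That of EGR1 to EGR3 was 2.50 to 3.40 in differentiated cells and 1.34 to 2.14 in undifferentiated cells, a difference of 1.07 in the opposite direction. That of NR4A1 to NR4A2 was -1.18 to 0.42 in differentiated cells and 1.62 to 2.65 in undifferentiated cells, a difference of -2.68. The ratio of NR4A1 to NR4A3 was 0.50 to 1.84 in differentiated cells and 1.18 to 3.08 in undifferentiated cells, ranges that overlap.

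MYC (ENSSSCG00000005965, chromosome 4, 12778444 to 12783481, minus strand) was at 47.8 and 34.3 FPKM in differentiated females and 50.6 and 48.6 FPKM in differentiated males, against 200.1 and 142 FPKM in undifferentiated females and 133 and 169 FPKM in undifferentiated males. The states were separated by a wide gap. Differentiated male replicate 1, the library with the higher proliferation markers, had the highest level of MYC, and also of FOSL1 and IER3, among the 4 differentiated libraries. The same library had the lowest level of FOS, JUN, EGR1 and IER2 among those 4. MYC averaged 45.3 ± 7.45 FPKM in differentiated cells and 161 ± 30.1 FPKM in undifferentiated cells (SD, n = 4 each; log2 fold change -1.80 ± 0.168 SE, limma adjusted p = 0.000479).

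IER2 is a short nuclear protein of the early response, and IER3 (IEX-1) is known in human and mouse cells as a modulator of apoptosis and ERK signalling. IER2 (ENSSSCG00000013753, chromosome 2, 66211129 to 66211794, minus strand) lies 293 kb from JUNB. It was at 32.6 and 22.9 FPKM in differentiated females and 16.7 and 28.6 FPKM in differentiated males, against 45.1 and 38.1 FPKM in undifferentiated females and 46.3 and 47.9 FPKM in undifferentiated males. IER2 averaged 25.2 ± 6.90 FPKM in differentiated cells and 44.3 ± 4.31 FPKM in undifferentiated cells (SD, n = 4 each; log2 fold change -0.83 ± 0.198 SE, limma adjusted p = 0.0156). This call was the least firm of the 9: it ended without differentiated female replicate 2 (limma adjusted p = 0.051) or undifferentiated female replicate 1 (0.0567).

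IER3 (ENSSSCG00000027607, chromosome 7, 26987521 to 26988891, minus strand) was at 9.66 and 10.2 FPKM in differentiated females and 19.5 and 16.0 FPKM in differentiated males, against 54.6 and 54.4 FPKM in undifferentiated females and 40.9 and 79.7 FPKM in undifferentiated males. Both differentiated males exceeded both differentiated females, an order of 2 against 2 libraries whose share over all tested genes was not counted. Averaged over the states, IER3 was not called between the sexes (limma adjusted p = 0.554). IER3 averaged 13.8 ± 4.74 FPKM in differentiated cells and 57.4 ± 16.2 FPKM in undifferentiated cells (SD, n = 4 each; log2 fold change -1.99 ± 0.212 SE, limma adjusted p = 0.000739).

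In the order of levels EGR1 kept the first place, and the places below it varied between libraries. FPKM is scaled by transcript length, so such an order relies on complete gene models. That of NR4A1 starts at base 21 of an unplaced scaffold, and its completeness was not tested. In differentiated cells EGR1 was followed by JUN and then MYC in all 4 libraries, while in undifferentiated cells JUN and MYC shared the next places, each above the other in 2 libraries. JUNB and IER2 overlapped in both states, as did FOS and FOSL1. IER3 ranked between place 5 and place 7 of 9 in differentiated cells and between place 4 and place 7 in undifferentiated cells. NR4A1 was lowest or next to lowest in all 8 libraries. The summed level of the 9 genes was 315 to 397 FPKM in differentiated cells and 827 to 913 FPKM in undifferentiated cells. EGR1 alone made up 39.6% to 47.3% of that sum in differentiated cells and 29.4% to 38.4% in undifferentiated cells, ranges that did not overlap.

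Rank among the 12963 tested genes of each library gave a second view. EGR1 stayed among the most abundant tested genes, at percentile 94.3 to 96.0 in differentiated cells and 96.5 to 97.1 in undifferentiated cells. MYC was at percentile 81.0 to 86.3 in differentiated cells and 94.3 to 96.0 in undifferentiated cells. FOS was at percentile 36.1 to 52.7 in differentiated cells and 66.1 to 87.2 in undifferentiated cells. NR4A1 was at percentile 16.9 to 43.5 in differentiated cells and 56.1 to 80.8 in undifferentiated cells. MYC and FOS, whose log2 fold changes were close, thus stood at quite different ranks in differentiated cells.

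**Figure D3:**
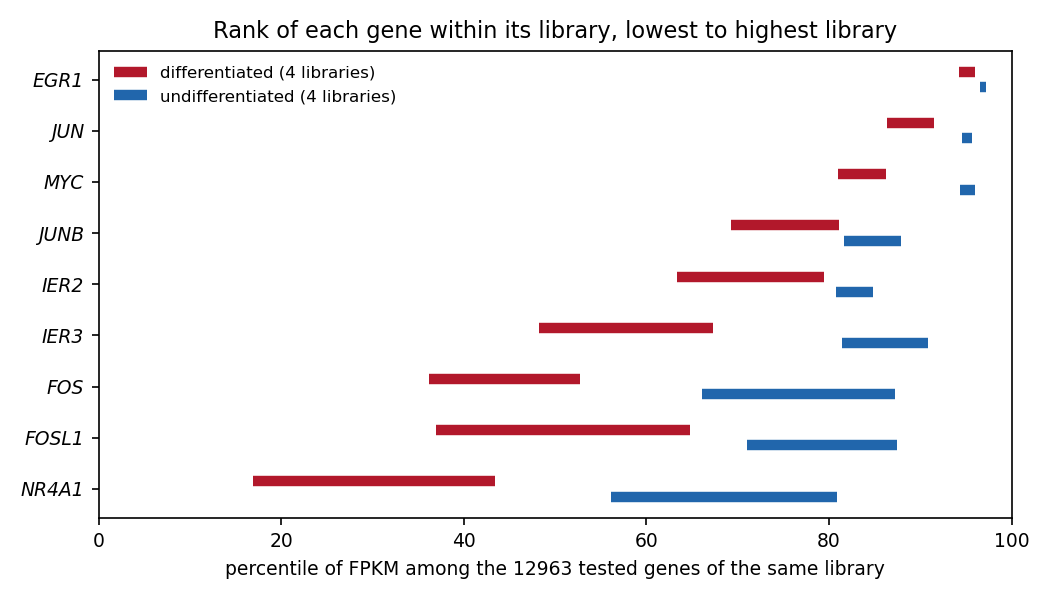
Percentile of each gene's FPKM among all tested genes of the same library, drawn from the lowest to the highest of 4 libraries, differentiated (red) above undifferentiated (blue). EGR1 remained above percentile 94 in both states, while NR4A1 ranged from 16.9 to 43.5 in differentiated cells.

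Within the sexes all 9 fold changes were negative in both. In females 7 of the 9 fell and 0 rose (23.3% of tested genes fell and 12.5% rose), with JUNB (log2 -0.85, limma adjusted p = 0.0536) and IER2 (log2 -0.58, adjusted p = 0.156) not called. The female count was 5 without differentiated female replicate 2 or undifferentiated female replicate 2. The call of EGR1 in females (limma adjusted p = 0.0404) ended under median-ratio scaling (0.0924), quantile normalization (0.0861) and 9 further alternatives. That of NR4A1 in females (limma adjusted p = 0.0116) ended without differentiated female replicate 1 (0.0553), differentiated female replicate 2 (0.0566) or undifferentiated female replicate 2 (0.0632). In males 9 fell and 0 rose (20.1% of tested genes fell and 12.9% rose). Only 5 fell in males without differentiated male replicate 1, without differentiated male replicate 2 or without undifferentiated male replicate 1. The fall was nominally larger in females for FOS, FOSL1, MYC, NR4A1 and IER3 and in males for JUN, JUNB, EGR1 and IER2. The difference of the effect between the sexes was called for 0 of the 9 by limma, and 0 had an unadjusted p under 0.05. Among all tested genes 0.0154% were called with a more positive effect in females and 0.00771% with a more negative one, and 6.03% had an unadjusted p under 0.05. The largest was that of IER3 (log2 -0.71, 95% confidence interval -1.74 to 0.33, limma adjusted p = 0.83), so a difference anywhere in that interval was not resolved with 2 libraries per group. Averaged over the states, 0 of the 9 differed between females and males after adjustment by limma (0.0231% of tested genes were higher and 0.0617% lower in females), and FOS and FOSL1 were the 2 with an unadjusted p under 0.05, as 9.73% of tested genes had.

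**Figure D4:**
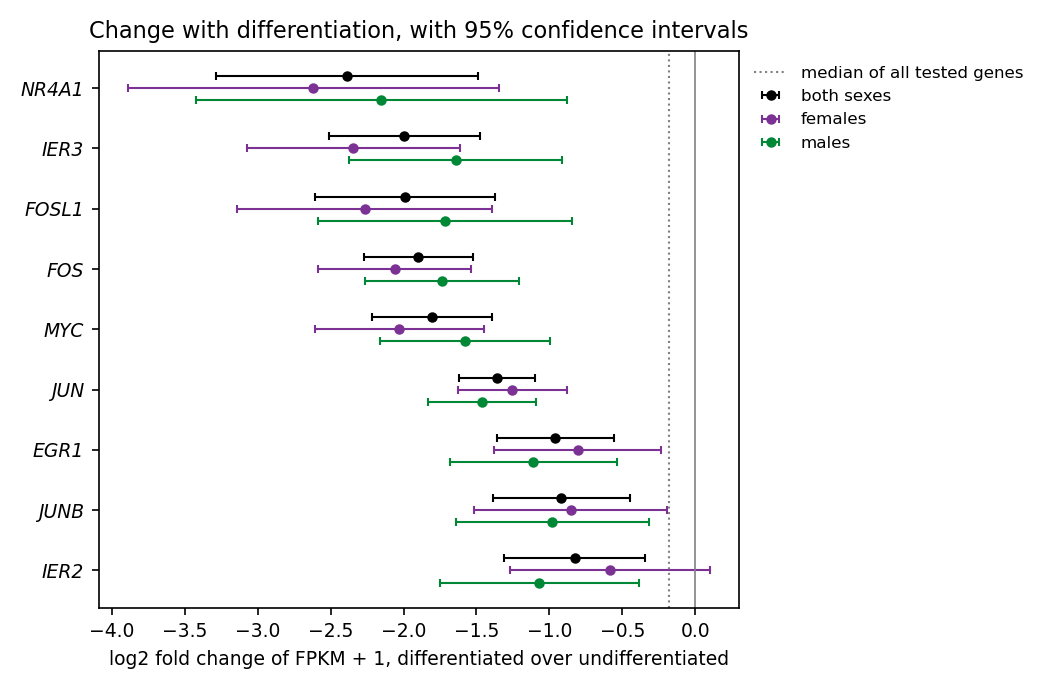
Log2 fold change of FPKM + 1, differentiated over undifferentiated, with 95% confidence intervals from limma, for both sexes together (black), females (purple) and males (green); the dotted line is the median of all tested genes. All intervals for both sexes together lie left of the dotted line, and in females that of IER2 crosses 0.

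Other AP-1 proteins and bZIP partners moved in both directions. Of 12 listed, 8 had a row and 6 were tested, of which 2 rose, 2 fell and 2 were not called (median log2 fold change -0.27). Among all tested genes 18.0% rose and 31.9% fell, the shares against which this and the following lists are to be read. ATF3, a stress-induced partner of Jun, averaged 3.91 ± 2.36 FPKM in differentiated cells and 11.0 ± 3.49 FPKM in undifferentiated cells (SD, n = 4 each; limma adjusted p = 0.024), a call that ended with the replicate block (0.0612) and when any of 5 single libraries was left out (0.0514 to 0.0797). ATF2, a partner of JUN, had a log2 fold change of -0.46 (limma adjusted p = 0.0124). ATF2 was no longer called with quantile normalization (adjusted p = 0.0541) or median-ratio scaling (0.0928). ATF7, related to ATF2, had a log2 fold change of 0.32 (limma adjusted p = 0.0287), a call that ended with the replicate block (0.054) and when any of 6 single libraries was left out (0.0532 to 0.0848).

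Among other early zinc-finger and nuclear receptor genes, 1 of 13 tested rose, 9 fell and 3 were not called (median log2 fold change -0.99). EGR3, given above, had the largest fall of the list. KLF9, a Krüppel-like factor, fell to 22.4 ± 3.74 FPKM in differentiated cells, against 71.2 ± 15.2 FPKM in undifferentiated cells (SD, n = 4 each; log2 -1.61, limma adjusted p = 0.000477). ZFP36L2, an RNA-binding protein that speeds mRNA decay, also fell (log2 -1.55). KLF5 rose to 1121 ± 134 FPKM in differentiated cells, against 259 ± 45.7 FPKM in undifferentiated cells (SD, n = 4 each; log2 2.12, limma adjusted p = 4.56e-05), and its other row gave a log2 fold change of 2.19. KLF5 is known in mouse muscle as a cofactor of myogenic differentiation.

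Of 22 other primary response genes tested, 1 rose, 10 fell and 11 were not called (median log2 fold change -0.64). Over all tested genes the shares were 18.0% risen and 31.9% fallen. SGK1, a kinase induced by serum and glucocorticoids, fell to 2.05 ± 1.24 FPKM in differentiated cells, against 19.3 ± 4.76 FPKM in undifferentiated cells (SD, n = 4 each; log2 -2.78, limma adjusted p = 0.000448). The matricellular genes CYR61 (log2 -2.33) and CTGF (log2 -1.85) fell as well. GADD45B, a growth arrest gene, was the one that rose, at 8.11 ± 1.35 FPKM in differentiated cells and 4.16 ± 0.410 FPKM in undifferentiated cells (SD, n = 4 each; log2 0.81, limma adjusted p = 0.00237).

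SRF, which binds the serum response elements of FOS and EGR1 and also muscle genes, rose while those early genes fell. SRF was at 25.5 and 24.0 FPKM in differentiated females and 23.6 and 21.4 FPKM in differentiated males, against 11.0 and 10.3 FPKM in undifferentiated females and 11.3 and 8.92 FPKM in undifferentiated males (log2 1.12, limma adjusted p = 0.000457). All differentiated libraries stood above all undifferentiated ones. Of the 6 tested genes for SRF and its cofactors, 2 rose, 2 fell and 2 were not called. The shares over all tested genes were 18.0% risen and 31.9% fallen. The ETS partner ELK3 (log2 -1.74) and the LIM protein FHL2 (log2 -1.60) fell. MKL1, the actin-regulated coactivator, had a log2 fold change of 0.39 (limma adjusted p = 0.0485), a call that ended under 9 of the 16 alternatives, among them a pseudocount of 0.1 (0.0506).

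In the MYC network 0 of 9 tested partners rose, 4 fell and 5 were not called, whereas 3 rose and 3 fell under median-ratio scaling. With values as deposited, 18.0% of all tested genes rose and 31.9% fell. MAX, the obligate partner of MYC, averaged 64.4 ± 4.75 FPKM in differentiated cells and 85.9 ± 6.72 FPKM in undifferentiated cells (SD, n = 4 each; log2 -0.41, limma adjusted p = 0.0146). The MAX call ended under median-ratio scaling (0.185) and without undifferentiated female replicate 1 (0.0533). MLXIP (log2 -1.13), MXD3 (log2 -1.04) and MXD4 (log2 -0.88), which belong to the same network of MAX and MLX partners, fell.

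Of 20 growth genes known in human and mouse cells as MYC targets, 0 rose and 18 fell (median log2 fold change -0.92). LDHA, lactate dehydrogenase A, had the largest fall of the list (log2 -2.35), followed by ODC1, the entry enzyme of polyamine synthesis (log2 -1.64), and CAD, of pyrimidine synthesis (log2 -1.63). Among 10 tested genes known as AP-1 targets in other mammals, 0 rose and 8 fell (median log2 fold change -1.40). These included CCND1, cyclin D1 (log2 -4.53), HMGA1, a chromatin protein of growing cells (log2 -3.54), and CD44, a hyaluronan receptor (log2 -2.51). Lists such as these hold genes under many other controls, and no binding was measured. Of 14 tested kinases that signal to early genes, 2 rose, 3 fell and 9 were not called (4 rose and 2 fell under median-ratio scaling), beside 18.0% of all tested genes that rose and 31.9% that fell. MAP2K1, a kinase that relays growth signals to ERK, rose (log2 0.89). RPS6KA1 (log2 -0.75) was called except without undifferentiated female replicate 1 (limma adjusted p = 0.0514) or undifferentiated male replicate 1 (0.0502). The call of MAPK9 (log2 -0.33, limma adjusted p = 0.0473) ended under median-ratio scaling (0.403) and 10 further alternatives.

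**Figure D5:**
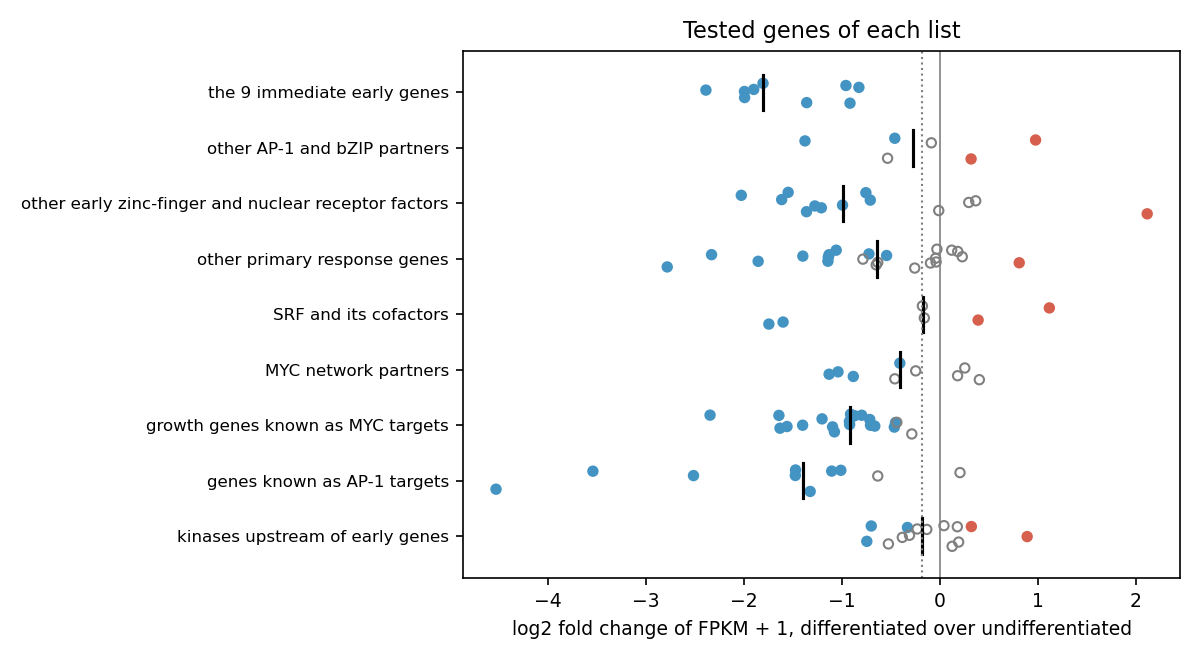
Log2 fold change of FPKM + 1, differentiated over undifferentiated, of each tested gene in the set and in the 8 lists; filled points passed the test (red rose, blue fell), open points did not, black bars are list medians and the dotted line is the median of all tested genes. All 9 immediate early genes are blue, while the lists of SRF cofactors and upstream kinases have medians of -0.17 and -0.18 (0.05 and 0.04 under median-ratio scaling).

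Likeness of pattern was measured as the root mean square difference of log2 values over the 8 libraries, each gene centred on its own mean, among 10480 tested genes with a symbol. EGR1 was nearest to CD82, a tetraspanin, at 0.0581, and then to NCL, nucleolin, at 0.0664. The NCL row was low, with means of 1.61 FPKM in differentiated cells and 3.88 FPKM in undifferentiated cells. JUNB was nearest to PPAN, a ribosome biogenesis factor, at 0.104, and to C17orf62 at 0.127. MYC was nearest to FAM171B (0.112) and TFPI (0.122), and FOSL1 to ANLN (0.135), which encodes the cytokinesis protein anillin, and SLC2A13 (0.139). JUN was nearest to PIGA (0.115) and MRPL12 (0.121), and IER2 to ZNF276 (0.135) and KIF7 (0.145). Among the nearest genes of IER3 was SH2B3 (0.202), and FOS was nearest to the integrin subunit ITGB5 (0.274) and to DENND2A (0.281). NR4A1 had the least close neighbours, NUP210 at 0.398 and GNPTAB at 0.416. None of the 9 genes was the nearest or next nearest of another. The closest pair was EGR1 and IER2 at 0.190, and FOS had 53 genes with a symbol nearer to it than JUN, the nearest of the set.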

How the data were processed

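RNA sequencing was done on 8 libraries of cultured pig muscle cells, 2 in each of 4 groups of state and sex. The values the authors deposited are FPKM per gene. The submitters' processing notes list Cufflinks 2.2.1, cutadapt 1.6, TopHat2 2.0.12.1 and the genome build Sscrofa10.2; settings, annotation release and scaling total are not given in the sources used here. Cufflinks shares ambiguous reads between gene models, so short, overlapping or incomplete models are less reliable.

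The 10 symbols and the gene lists were chosen with earlier results of these data known. Members were matched on the gene name in the table, and list genes also through an Ensembl identifier table, since some stand under older names (EGR3 as EGR-3, NR4A3 as NOR-1); where a symbol had several rows, that with the highest mean was used. Genes averaging 1 FPKM or more (12963) were tested, and their log2(FPKM + 1) was fitted in R 4.3.3 with limma 3.58.1 (eBayes with a mean-variance trend), 1 mean per group and no block, and the Benjamini-Hochberg adjustment of the two-sided p-values ran over the whole set. All 9 members passed the filter. Fold changes are on the log2(FPKM + 1) scale, which understates the change of low genes. "Rose" and "fell" mean an adjusted p under 0.05. In each list the 3 largest called changes in each direction were named, together with direct partners of the members; other genes were named after their values were seen. Some genes that this rule would name are not reported here. Whole reads were not recovered, so no count test was run.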

Additional observations from a re-analysis of the deposited data

Results flagged for a closer look

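In the differentiated libraries NR4A1 stood at 8.32 FPKM in male replicate 2, against 2.31, 2.58 and 3.21 FPKM in the other 3. That library's gap to its nearest neighbour took up 0.85 of the group's whole range. Of the 18 groups of 4 libraries looked at (9 genes in 2 states) this was the only one so far apart, and chance flags about 1 in 20 such groups. Without that library the log2 fold change of NR4A1 was -2.67, against -2.39 with it, and the call was kept.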

How the results depend on the processing

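All 9 genes fell under each of the 8 alternatives that kept every library, and 8 to 9 did when any 1 library was left out, IER2 being the exception. Over both sexes 142 single-gene refits kept the call and 2, both of IER2, lost it; 0 changed direction. Deviations from the group mean were hardly correlated between the states for replicates of the same number (0.0684 in females and -0.0264 in males). With 2 libraries per group this cannot show whether such replicates shared an animal. With the replicate block 9 of the 9 genes fell over both sexes, 7 in females, and 8 in males, where JUNB was lost (adjusted p = 0.0911). Median-ratio scaling raised the median of all tested genes by 0.20, and of all called genes 47.6% fell, against 63.9% as deposited; the genes of the lists that rose then numbered 13, against 8. Leaving out 1 library gave 5 to 9 falls in males and 5 to 8 list genes that rose, the lowest without undifferentiated female replicate 1. Fewer libraries per group also leave the test with less power, and the part of this in these counts was not tested. Library depth in reads is unknown, and with 2 libraries per group differences between the sexes are poorly resolved.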
